A study of Mus musculus with 4 samples.

Results

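The genes of the metalloproteinase families ADAM, ADAMTS and MMP, of the ADAMTS-like (ADAMTSL) proteins and of the tissue inhibitors of metalloproteinases (TIMP) were followed in endothelial cells (ECs) of the growing mouse retina. Members were all protein coding genes whose symbol is Adam, Adamts, Adamtsl, Mmp or Timp followed by a number, which gave 70 of the 17349 protein coding genes and of the 26822 gene symbols measured. They comprised 24 ADAM, 18 ADAMTS, 5 ADAMTSL, 19 MMP and 4 TIMP genes. The ECs were obtained from untreated C57BL/6J pups at postnatal day (P) 6 by collagenase digestion of retina pairs and sorting of viable CD31+/CD45- cells. RNA-seq of polyadenylated RNA was carried out on 4 libraries of this 1 group, and no second genotype, treatment or age was measured, so genes were compared with genes and libraries with each other. Whether each library stands for its own animals is not stated in the labels, and the spread may be in part technical.

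ADAM proteins are membrane-anchored metalloproteinases that release the extracellular parts of receptors, ligands and adhesion molecules from the cell surface, a step on which Notch and growth factor signalling depend. ADAMTS enzymes are secreted, carry thrombospondin repeats and cut proteoglycans, procollagens and other matrix proteins, whereas ADAMTSL proteins share their repeats but lack the protease domain. MMPs degrade and process the extracellular matrix around sprouting vessels, some of them bound to the cell membrane, and TIMPs block MMPs and several ADAM and ADAMTS enzymes.

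The deposited values are whole-number counts per gene that were normalised between libraries, and they summed to between 14843847 and 15017241 per library. All 12 EC markers examined were detected, and their summed values lay between 65751 and 69026. Markers of other cell types were present and moved between libraries: those of pericytes and smooth muscle (10 of 10 detected) summed to 2103, 582, 2299 and 3880 in libraries 1 to 4, and those of photoreceptors (10 of 10) to 5089, 5862, 4614 and 13570. Astrocyte markers (3 of 5 detected, Aqp4 listed at 0) summed to between 96 and 1161, markers of microglia and leukocytes (6 of 10) to between 34 and 214, and fibroblast markers (2 of 4) to between 80 and 303. Progenitor and Müller glia markers (10 of 10) summed to between 5690 and 7355, ganglion cell markers (4 of 6, Pou4f2 listed at 0) to between 3686 and 4201, and pigment epithelium markers (3 of 5) to between 46 and 191. Rbpms, which is counted among the ganglion cell markers, made up most of that sum with 3456 ± 130 normalised counts (SD, n = 4).

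The promoters of Timp1 and Timp4 are shown because these genes had the highest and the lowest mean per kb of exon among the 4 inhibitors, although Timp1 overlapped with Timp3 (0.31 on the log2 scale for Timp1 over Timp3) and stood below it with coding length (-2.06). Each run is the 250 bases before the RefSeq start site on GRCm38.p6, read 5′ to 3′ on the strand of the gene, with CG dinucleotides in capitals.
Timp1: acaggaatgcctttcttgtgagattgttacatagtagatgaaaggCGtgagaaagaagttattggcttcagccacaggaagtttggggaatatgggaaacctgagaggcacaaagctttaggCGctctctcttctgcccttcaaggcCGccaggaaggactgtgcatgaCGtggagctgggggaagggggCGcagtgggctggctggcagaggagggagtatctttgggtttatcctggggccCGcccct
Timp4: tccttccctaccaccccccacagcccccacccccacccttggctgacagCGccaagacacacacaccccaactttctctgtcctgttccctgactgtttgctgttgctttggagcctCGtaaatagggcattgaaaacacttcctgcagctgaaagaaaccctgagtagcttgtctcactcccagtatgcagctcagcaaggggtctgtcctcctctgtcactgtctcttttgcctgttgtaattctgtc
The Timp1 window lies at chrX:20869916-20870165 on the plus strand and holds 6 CG dinucleotides, and the Timp4 window at chr6:115252206-115252455 on the minus strand holds 2. Over 32851 RefSeq promoter windows of this length the median was 6 CG dinucleotides, and 50.4% held at least 6 and 81.2% at least 2. The windows of Timp2 (chr11:118355412-118355661, minus strand) and Timp3 (chr10:86300162-86300411, plus strand) held 21 and 18 CG dinucleotides, counts reached by 16.3% and 21.7% of all windows. They run into annotated exons by 95 and 40 bases, and their letters are not shown. The letters TGANTCA, the consensus of AP-1 factors, which reads the same on both strands, were in none of the 4 windows and in 6.75% of all windows. GGAATG, the core bound by TEAD factors, was searched on both strands and occurred once, in the Timp1 window, 247 bases before the start, and in 12.6% of all windows. A RefSeq window was matched for 42 of the 70 members, so no promoter property of all members was taken.

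A gene with a mean of at least 10 normalised counts was taken as detected. By this measure 42 of the 70 members were detected (60%), against 74.8% of all protein coding genes. A mean of at least 1000 was reached by 13 members (18.6%), against 30.3% of all protein coding genes: Adam10, Adam17, Adam15, Adam9, Adam19, Adamts10, Adamts1, Adamts4, Adamtsl2, Mmp14, Mmp15, Mmp25 and Timp3. A further 11 members had means between 100 and 1000 and 18 had means between 10 and 100. Of the 28 members not detected, 7 were listed at 0 in every library (Adam24, Adam29, Adam30, Mmp3, Mmp12, Mmp20 and Mmp27) and no library value of the others exceeded 18. The share detected differed between the families, with 11 of 24 ADAM, 14 of 18 ADAMTS, 3 of 5 ADAMTSL, 10 of 19 MMP and 4 of 4 TIMP genes. In bulk libraries, fewer cells that use a gene and less RNA per cell cannot be told apart.

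To set genes beside each other, the deposited values were divided by the length of all annotated exons and are given as normalised counts per kb. On this scale the median of the detected members was 38.1, against 219.9 for all detected protein coding genes, so that a few members were high and most were low. Adam10 had the highest level of all members at 1605 ± 39.4 normalised counts per kb (SD, n = 4), which placed it at percentile 99.2 of the detected genes. Adam15 followed at 1099 ± 58.4, Adamtsl2 at 1040 ± 49.6, Mmp14 at 934 ± 14.9 and Adam17 at 885 ± 55.7 normalised counts per kb. The highest of all genes stood at 2854 and the percentile 99 at 1570, so the scale had little room above Adam10. Removal of duplicate reads would lower the values of abundant genes, and with them their family shares and their differences from lower genes. Whether it was done is not given in the sources used here, and its part was not tested.

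**Figure D1:**
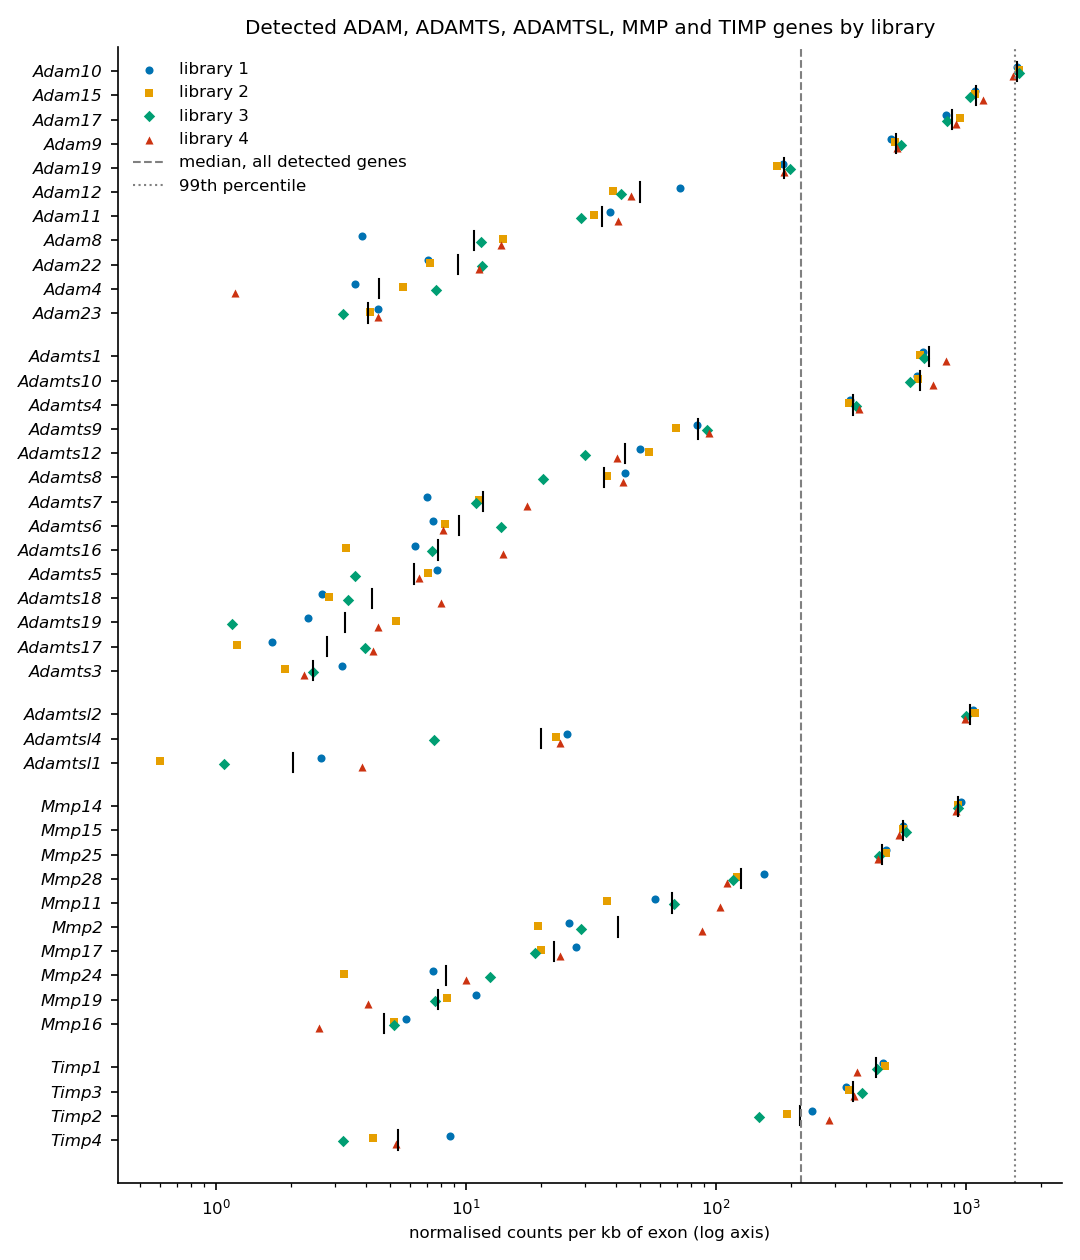
The 42 detected members by family, with normalised counts per kb of exon on a log axis. Each symbol is 1 library and the black bar the mean of 4; the dashed line is the median (219.9) and the dotted line the percentile 99 (1570) of all detected genes. In each family 1 to 4 members have their mean right of the dashed line. Timp2 and Adam19 lie just left of it and the others farther left, with wider scatter at low values.

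Among the ADAM genes, 7 of 9 sheddases and 3 of 3 neuronal adhesion genes were detected, against 74.8% of all protein coding genes. The 5 with means of at least 1000, a mean that 30.3% of all protein coding genes reached, were all sheddases. Adam10, which opens the Notch receptor for signalling and cuts VE-cadherin, had 7389, 7507, 7486 and 7114 normalised counts in libraries 1 to 4, with a mean of 7374 ± 181 (SD, n = 4). Adam17, which releases tumour necrosis factor and ligands of the EGF receptor, had 3760, 4280, 3799 and 4115, with a mean of 3988.5 ± 251. The lowest Adam10 value was above the highest Adam17 value, and per kb Adam10 exceeded Adam17 by 0.86 on the log2 scale, or 1.82-fold (p = 0.0286 by a two-sided exact permutation of the 8 values, and 0.0321 after Benjamini-Hochberg adjustment over 27 pairs). No smaller p can be had with 4 against 4 values. Every pair without overlap has this p, and 90.1% of all pairs of detected protein coding genes did not overlap. The pairs were chosen with earlier results of these data known. The permutation also ignores that both genes come from the same libraries, where a sign-flip test could not go below 0.125. Adam10 lies at chromosome 9, 70678997 to 70780229, and Adam17 at chromosome 12, 21323509 to 21373632, in GRCm38.

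Adam15, whose disintegrin domain binds integrins, had 3243, 3247, 3084 and 3504 normalised counts, with a mean of 3269.5 ± 174 (SD, n = 4). Its exons are short (2975 bases, against 4508 for Adam17), and per kb it stood above Adam17 by 0.31 on the log2 scale, without overlap (p = 0.0286, adjusted 0.0321 by the same exact permutation test). Without the division by length the order turned, to -0.29, and so it did with coding length, to -0.29, so which of the pair is higher rests on the length used. Adam9, a sheddase of several growth factors, had 2023, 2117, 2221 and 2155 normalised counts, with a mean of 2129 ± 82.7, and Adam9 over Adam10 came to -1.61 on the log2 scale per kb, without overlap.

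Adam12, or meltrin alpha, had 551, 298, 322 and 351 normalised counts, with a mean of 380.5 ± 116 (SD, n = 4). Adam19, or meltrin beta, which processes neuregulins, had 1187, 1121, 1268 and 1195, with a mean of 1193 ± 60.1. Library 1 was the high library for Adam12, whereas Adam19 did not single it out, and the difference of Adam12 over Adam19 per kb was -1.95 on the log2 scale, without overlap. Adam8, a sheddase best known from leukocytes, had 12, 44, 36 and 43 normalised counts (mean 33.8 ± 14.9), with library 1 lowest. Adam28 and Adam33, the other sheddases listed, had means of 2 and 0.25 and were not detected.

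The 3 ADAM proteins of neuronal adhesion, which lack protease activity and are best known as receptors of secreted LGI proteins at synapses, were detected at low levels. Adam11 had 193, 167, 148 and 208 normalised counts (mean 179 ± 26.7), Adam22 had 76, 77, 125 and 121 (mean 99.8 ± 26.9) and Adam23 had 29, 27, 21 and 29 (mean 26.5 ± 3.79). Per kb Adam22 exceeded Adam23 by 1.12 on the log2 scale, without overlap, and by 1.84 without the division by length. Of the 12 remaining ADAM genes, most of which are known from testis and sperm, Adam4 was the only detected one, with 9, 14, 19 and 3 normalised counts (mean 11.2 ± 6.85), close to the threshold. The other 11 had means of at most 9.25, the value of Adam1a. Over all protein coding genes 74.8% were detected.

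Together Adam10, Adam15 and Adam17 held 81.1% ± 0.688 of the summed ADAM level per kb (SD, n = 4), between 80.3% and 82.0% in single libraries. Adam10 alone held 36.3% ± 1.24, Adam15 24.8% ± 1.08, Adam17 19.99% ± 0.956 and Adam9 11.9% ± 0.472. The order of Adam15 and Adam17 turned with the length, with 17.5% for Adam15 and 21.3% for Adam17 without division and 16.5% and 20.2% with coding length.

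Of 9 listed partners that mature and steer these sheddases, 8 were detected, against 74.8% of all protein coding genes. Of the 9, 5 had means of at least 1000, a mean that 30.3% of all protein coding genes reached. Rhbdf1, an inactive rhomboid that carries ADAM17 to the cell surface, had 4430 ± 149 normalised counts (SD, n = 4), or 1504 per kb, and its paralogue Rhbdf2 had 772 ± 230, or 199 per kb. Rhbdf2 ranged from 558 in library 3 to 1099 in library 4. Frmd8, which stabilises that complex, had 2158 ± 86.3. Among the tetraspanins that bind ADAM10, Tspan14 had 3906 ± 113 normalised counts (1555 per kb), Tspan15 had 2712 ± 237 (745 per kb), Tspan5 had 5090 ± 82.9 (729 per kb) and Tspan17 had 877 ± 53.2 (538 per kb). Tspan33 was low at 46 ± 7.87 normalised counts and Tspan10 was listed at 0 in all libraries. Tspan14 and Rhbdf1 thus had values per kb near that of Adam10, in a range where the scale had little room (percentile 99 at 1570, highest gene at 2854).

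Among the ADAMTS genes, Adamts1, Adamts10 and Adamts4 carried most of the level. Adamts1, which cleaves versican and aggrecan and binds VEGF, had 3288, 3193, 3333 and 4088 normalised counts in libraries 1 to 4, with a mean of 3475.5 ± 412 (SD, n = 4). Adamts4, an aggrecanase, had 1655, 1642, 1744 and 1799, with a mean of 1710 ± 74.7. Library 4 was the highest for both, by a wide margin for Adamts1, whose mean was 3271 without it. Per kb Adamts1 exceeded Adamts4 by 0.99 on the log2 scale, or 1.99-fold, without overlap. Adamts1 lies at chromosome 16, 85793827 to 85803113, and its neighbour Adamts5, the other main aggrecanase, at 85856173 to 85901828 on the same strand (GRCm38). Adamts5 had 83, 76, 39 and 70 normalised counts, with a mean of 67 ± 19.4, lowest in library 3. Adamts4 stood above Adamts5 by 5.87 on the log2 scale per kb, or 58.6-fold, and by 4.71 without the division by length and 4.81 with coding length.

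The remaining proteoglycanases were lower. Adamts9, a versican-cleaving enzyme, had 673, 557, 740 and 750 normalised counts, with a mean of 680 ± 88.8 (SD, n = 4), and Adamts1 exceeded it by 3.07 on the log2 scale per kb, or 8.39-fold. Adamts8 had 158, 133, 74 and 154, with a mean of 130 ± 38.8, and library 3 was its lowest. Adamts15 and Adamts20, the last of the 7 proteoglycanases, had means of 7.50 and 5.25 and were not detected. The proteoglycans listed as substrates were low: versican (Vcan) had 21 ± 11.7 normalised counts, brevican (Bcan) 59.5 ± 36.3, neurocan (Ncan) 27.5 ± 13.0 and aggrecan (Acan) 1 ± 0.816.

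Both ADAMTS genes of fibrillin microfibrils were detected (74.8% over all protein coding genes), at very different levels. Adamts10, whose loss causes Weill-Marchesani syndrome in humans, had 3826, 3870, 3578 and 4447 normalised counts, with a mean of 3930 ± 368 (SD, n = 4). Adamts6, its closest paralogue, had 49, 55, 92 and 54, with a mean of 62.5 ± 19.8. Adamts10 was highest in library 4 and Adamts6 in library 3, and per kb Adamts10 exceeded Adamts6 by 6.14 on the log2 scale, or 70.7-fold, without overlap. Fibrillin-1 (Fbn1) had 154 ± 36.4 and fibrillin-2 (Fbn2) 18.8 ± 16.4 normalised counts.

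The enzymes known to cut cartilage oligomeric matrix protein, Adamts12 and Adamts7, differed in level too. Adamts7 had 40, 65, 63 and 101 normalised counts (mean 67.2 ± 25.2) and Adamts12 had 428, 462, 257 and 345 (mean 373 ± 91.6). Adamts7 was highest in library 4 and Adamts12 in library 2, and the difference of Adamts7 over Adamts12 per kb was -1.91 on the log2 scale, without overlap. Of the 3 procollagen propeptidases, Adamts3, which also takes part in the activation of VEGF-C, had 17, 10, 13 and 12 normalised counts (mean 13 ± 2.94), and Adamts2 and Adamts14 were not detected, with means of 3.50 and 5.75.

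Adamts16, Adamts18, Adamts17 and Adamts19 were all detected (74.8% over all protein coding genes), with means below 50. Adamts16 had 34, 18, 40 and 77 normalised counts (mean 42.2 ± 25.0) and Adamts18 had 15, 16, 19 and 45 (mean 23.8 ± 14.3), library 4 being the highest for both. The pair overlapped, with Adamts16 over Adamts18 at 0.82 on the log2 scale per kb (p = 0.257, adjusted 0.267, exact two-sided permutation test), although Adamts16 was the higher gene in 4 of 4 libraries. Adamts17 had 11, 8, 26 and 28 (mean 18.2 ± 10.2) and Adamts19 had 12, 27, 6 and 23 (mean 17 ± 9.70). Adamts17 over Adamts19 came to -0.24 with wide overlap (p = 0.686, adjusted 0.686, exact two-sided permutation test), and its sign turned without library 2, to 0.35.

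Adamts1, Adamts10 and Adamts4 together held 88.9% ± 0.467 of the summed ADAMTS level per kb (SD, n = 4), with 36.7% ± 1.18 for Adamts1, 33.8% ± 1.01 for Adamts10 and 18.4% ± 1.14 for Adamts4. Without the division by length Adamts10 led with 37.0%, against 32.6% for Adamts1. The summed ADAMTS level was 1938 ± 176 normalised counts per kb, and library 4 was the highest at 2201, against 1834 to 1872 in libraries 1 to 3.

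Among the ADAMTSL genes only Adamtsl2 had a mean of at least 1000. Adamtsl4, mutated in human ectopia lentis, had 103, 93, 30 and 96 normalised counts, with a mean of 80.5 ± 33.9 (SD, n = 4). Adamtsl2, which binds fibrillin and the latent complex of TGF-beta, had 3867, 3949, 3635 and 3577 normalised counts, with a mean of 3757 ± 179, and held 97.9% ± 0.825 of the summed ADAMTSL level per kb. Library 3 stood apart as the low one for Adamtsl4, and the difference of Adamtsl4 over Adamtsl2 per kb was -5.83 on the log2 scale, without overlap. Adamtsl1 had 22, 5, 9 and 32 normalised counts (mean 17 ± 12.4), and Adamtsl3 and Adamtsl5 were not detected, with means of 1.50 and 0.75. Some related genes were not members because of their symbols. Of these, Pofut2, which adds fucose to thrombospondin repeats, had 2418 ± 57.9 normalised counts. B3glct, which extends that sugar, had 744 ± 76.0. Papilin (Papln) had 198.5 ± 74.7 and Thsd4 had 2.75 ± 2.75, under the threshold. Von Willebrand factor (Vwf), listed as an ADAMTS substrate and used above as an EC marker, had 10644 ± 688 normalised counts, or 1088 per kb. Library 4 was its lowest with 9676. Adamts13, the gene listed for the cleavage of this factor, is not among the 18 ADAMTS genes followed here.

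**Figure D2:**
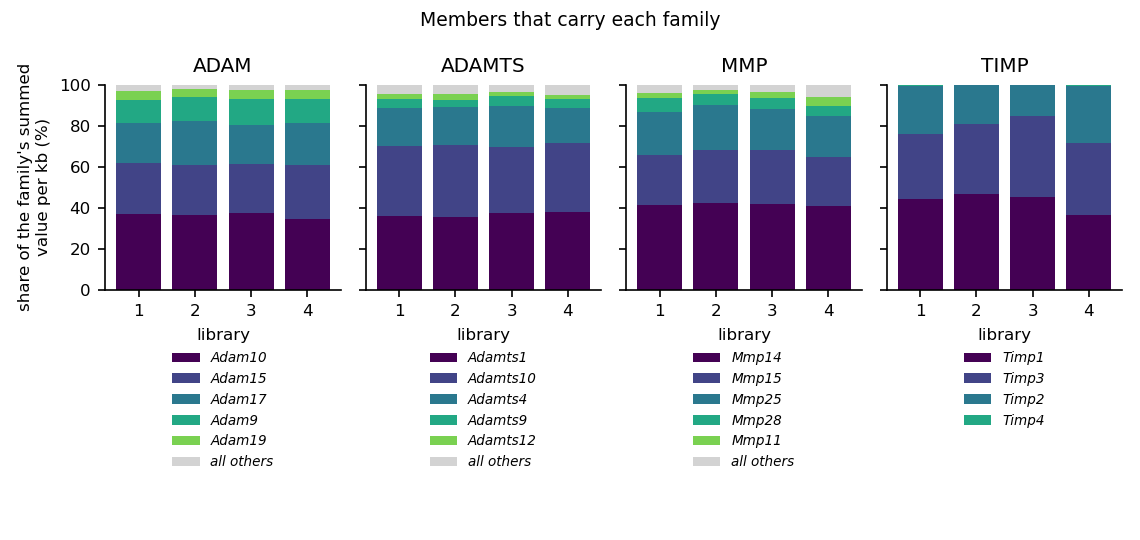
Share of each family's summed level per kb held by its 5 highest members (4 for TIMP), in percent, with 1 bar per library and all other members in grey. Adam10, Adam15 and Adam17 fill 80.3% to 82.0% of the ADAM bars, and the TIMP bars vary most, with Timp2 taking 21.3% ± 5.48 on average.

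All 6 membrane-type MMPs were detected, against 74.8% of all protein coding genes, and 3 of them carried most of the MMP level. Mmp14, which activates the secreted enzyme Mmp2 at the cell surface and degrades fibrillar collagen, had 3988, 3893, 3913 and 3837 normalised counts in libraries 1 to 4, with a mean of 3908 ± 62.4 (SD, n = 4). Mmp15, a transmembrane paralogue, had 2881, 2882, 2976 and 2768, with a mean of 2877 ± 85.1. Mmp25, which is held in the membrane by a lipid anchor, had 2182, 2178, 2029 and 2026, with a mean of 2104 ± 88.1. These 3 genes had nearly the same value in every library, and per kb Mmp14 exceeded Mmp15 by 0.74 on the log2 scale, or 1.67-fold, without overlap. Mmp14 lies at chromosome 14, 54431612 to 54445364, Mmp15 at chromosome 8, 95352268 to 95375080, and Mmp25 at chromosome 17, 23628311 to 23645277 (GRCm38).

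The other membrane-type enzymes were far lower. Mmp17, the second lipid-anchored enzyme, had 177, 128, 122 and 153 normalised counts (mean 145 ± 25.2), and Mmp17 over Mmp25 came to -4.37 on the log2 scale per kb. Mmp24, which is known from neurons, had 32, 14, 54 and 43 (mean 35.8 ± 17.1), and Mmp15 exceeded it by 6.19 on the log2 scale per kb. Mmp16 had 29, 26, 26 and 13 (mean 23.5 ± 7.14), and Mmp14 exceeded it by 7.64 on the log2 scale per kb, or 199-fold. None of these 3 pairs overlapped.

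The secreted MMPs were low or not detected. Mmp2, gelatinase A, had 80, 60, 89 and 270 normalised counts, with a mean of 125 ± 97.6 (SD, n = 4). Library 4 was more than 3 times as high as any other library, and the mean was 76.3 without it. Mmp14 exceeded Mmp2 per kb in every library, by 4.78 on the log2 scale, or 27.4-fold, without overlap. Mmp9, gelatinase B, had 0, 0, 5 and 7 normalised counts and was not detected. Mmp11, which furin activates inside the cell, had 131, 84, 156 and 238 (mean 152 ± 64.5), with library 4 highest and library 2 lowest, while Mmp3 was listed at 0 in every library and Mmp10 had a mean of 0.5. Mmp8, the only collagenase measured here, had a mean of 1.50.

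Of the 7 other MMPs, 2 were detected, against 74.8% of all protein coding genes. Mmp19 had 38, 29, 26 and 14 normalised counts (mean 26.8 ± 9.91). Mmp28, or epilysin, had 589, 458, 442 and 417 (mean 476.5 ± 76.9). Both were highest in library 1 and lowest in library 4, and Mmp19 over Mmp28 came to -4.04 on the log2 scale per kb, without overlap. The 5 not detected were Mmp12, Mmp20, Mmp21, Mmp23 and Mmp27, and Mmp23, with a mean of 9.75, was just under the threshold. Mmp14, Mmp15 and Mmp25 together held 87.3% ± 2.30 of the summed MMP level per kb (SD, n = 4), between 84.4% and 89.9% in single libraries, with 41.6% ± 0.742 for Mmp14, 25.0% ± 0.980 for Mmp15 and 20.7% ± 0.941 for Mmp25.

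Genes that activate the proenzymes or induce MMPs were taken from a list of 8, of which 7 were measured and Plg was not. Of these 7, 6 were detected and 4 had means of at least 1000. Over all protein coding genes the shares were 74.8% and 30.3%. Furin, which cleaves the propeptides of ADAMs and membrane-type MMPs, had 2665 ± 254 normalised counts (SD, n = 4), Pcsk7 had 1939 ± 383, Pcsk6 had 457 ± 161 and Pcsk5 had 225 ± 56.0. Plat, the tissue plasminogen activator, had 4553 ± 73.2, or 1803 per kb, whereas Plau, the urokinase gene, had 9, 0, 0 and 0. Bsg, or basigin, an inducer of MMPs in neighbouring cells, had 2468 ± 39.8.

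All 4 TIMP genes were detected, against 74.8% of all protein coding genes. Timp1, a weak inhibitor of transmembrane MMPs such as Mmp14, had 413, 421, 394 and 327 normalised counts in libraries 1 to 4. Its mean was 389 ± 42.7 (SD, n = 4), and library 4 was its lowest. Timp2, which links Mmp14 to the precursor of Mmp2, had 898, 714, 552 and 1050, with a mean of 803.5 ± 217. Timp3, which is bound to the matrix, blocks ADAM17 as well as MMPs and is mutated in Sorsby fundus dystrophy of the human retina, had 1569, 1611, 1812 and 1682, with a mean of 1668.5 ± 106. Timp2 was lowest in library 3, where Timp3 was highest, and the difference of Timp2 over Timp3 per kb was -0.74 on the log2 scale, without overlap. Timp4 had 51, 25, 19 and 31, with a mean of 31.5 ± 13.9, and library 1 was its highest.

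The order of the inhibitors depended on the scale. The exons of Timp1 span 888 bases, against 3709 for Timp2, 4722 for Timp3 and 5894 for Timp4. Per kb the levels were 438 ± 48.1 for Timp1, 217 ± 58.4 for Timp2, 353 ± 22.5 for Timp3 and 5.34 ± 2.36 for Timp4 (SD, n = 4). Timp1 over Timp3 was 0.31 on the log2 scale with overlapping values (p = 0.0571, adjusted 0.0617, exact two-sided permutation test), with Timp1 the higher gene in 4 of 4 libraries, and Timp1 over Timp2 was 1.05 without overlap. Both turned without the division by length, to -2.10 for Timp1 over Timp3 and -1.01 for Timp1 over Timp2, and with coding length, to -2.06 and -0.91. Timp4 was the lowest on every scale used, with Timp1 above it by 6.40, Timp2 by 5.35 and Timp3 by 6.09 on the log2 scale per kb.

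Enzymes were set beside the inhibitors they are known to bind. Timp2 over Mmp14 was -2.15 and Timp3 over Adam17 was -1.32 on the log2 scale per kb, both without overlap. With coding length Timp2 over Mmp14 came to -0.72 and Timp3 over Adam17 turned to 0.77. The summed MMP level per kb was 2245 ± 44.9 and the summed TIMP level 1013 ± 28.0 normalised counts per kb (SD, n = 4). Their ratio was 2.20, 2.17, 2.28 and 2.23 in libraries 1 to 4, with a mean of 2.22 ± 0.0467. The ratio rested on the length used and came to 3.43 ± 0.174 without the division by length and 1.14 ± 0.0539 with coding length. Of the 7 other inhibitors reported, 6 were detected, against 74.8% of all protein coding genes. Spock2, or testican-2, a matrix proteoglycan that is listed with its family but is known to counter the inhibitory testicans, had 8076 ± 203 normalised counts, or 1539 per kb. Reck, a membrane-anchored inhibitor of MMPs that is also part of a Wnt receptor complex of brain ECs, had 560.5 ± 87.5, or 126 per kb. Serpine2, which blocks plasminogen activators, had 929 ± 148. Tfpi2 had 273 ± 11.9, A2m had 28.5 ± 19.3 and Spock3 had 12 ± 17.6, while Spock1 had a mean of 0.5.

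Of the 34 pairs of related genes listed, 27 had both genes detected. The values per kb of 24 pairs did not overlap and those of 3 did (Adamts16 and Adamts18, Adamts17 and Adamts19, Timp1 and Timp3). Among all pairs of detected protein coding genes 90.1% did not overlap, so the count is near the background. The sizes of the non-overlapping pairs lay between 0.31, for Adam15 over Adam17, and 7.64, for Mmp14 over Mmp16, on the log2 scale. These sizes depended on the length used: apart from reversals, 8 pairs moved by over 1.5 times without the division by length or with coding length, the most for Timp1 over Timp4, which came to 3.67 and 3.90. Each non-overlapping pair had p = 0.0286 (adjusted 0.0321), the smallest that this exact permutation test over 70 splits gives. The permutation treats the values of both genes as separate samples, although they come from the same libraries. A sign-flip test within libraries, which keeps that pairing, could not go below 0.125.

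**Figure D3:**
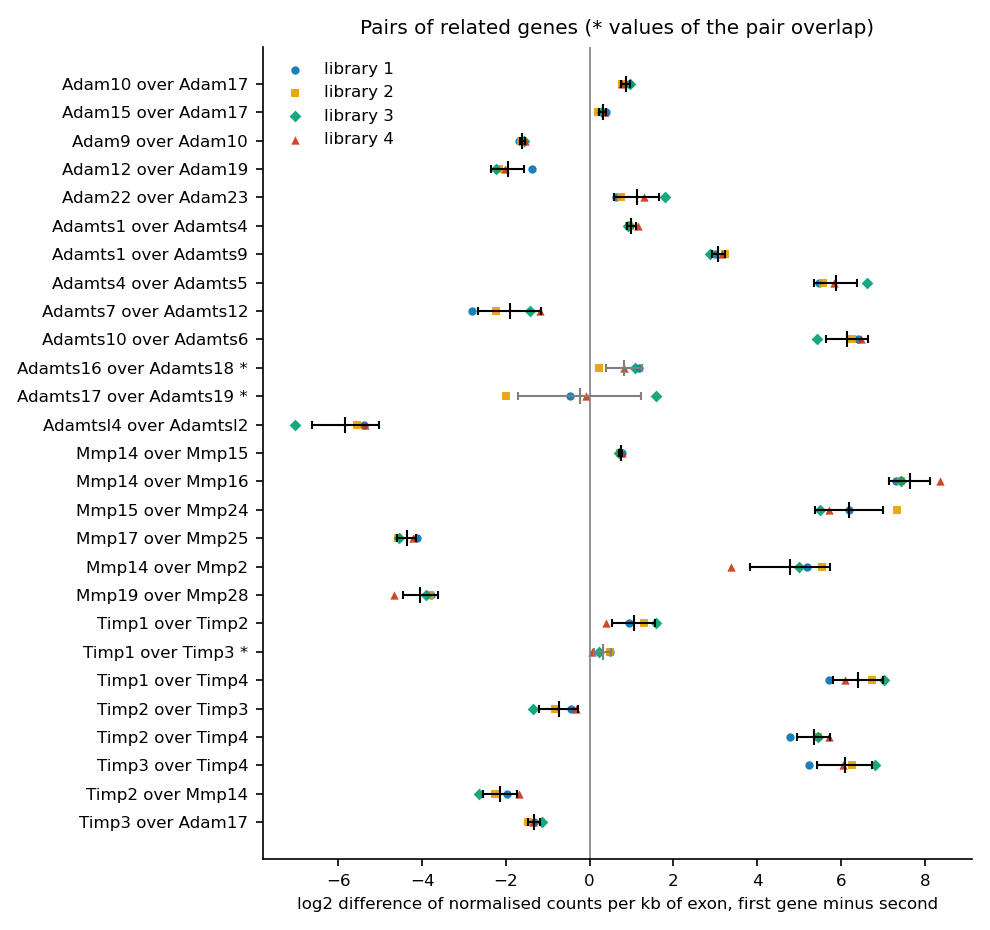
Log2 difference per kb of exon for the 27 pairs, the first gene named minus the second, with 1 symbol per library and the mean ± SD as a bar. The 3 pairs marked with an asterisk and drawn with grey bars overlap in their values; Mmp14 over Mmp16 lies farthest right at 7.64 and Adamtsl4 over Adamtsl2 farthest left at -5.83.

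The members' spread between libraries was set against that of genes of like level. Before level was matched, the SD of log2 values had a median of 0.38 for the detected members and 0.13 for all detected protein coding genes. The median means of these 2 sets differed, at 149 and 733 normalised counts. Relative to the trend of this SD on the mean, none of the 42 members lay beyond a robust z of 3, a call made for 0.177% of all detected genes. Timp2 had the highest z among the members, at 2.08. Library 4 held the highest value for 14 of the 42 members (33.3%), against 31.1% of all detected genes. Library 1 held it for 12, library 3 for 8 and library 2 for 7, and 1 member was tied. In 5 members 1 library lay far from the other 3, as it did in 6.73% of all detected genes.

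The summed pericyte and smooth muscle markers were ordered 2, 1, 3, 4 from the lowest to the highest library, as were the fibroblast and ganglion cell sums. Only Pdgfrb, Abcc9 and Notch3 of the 10 pericyte and smooth muscle genes held this order themselves. Rgs5, the highest of the 10, had 1222, 298, 1103 and 1879 in libraries 1 to 4. Rbpms, the bulk of the ganglion cell sum, had 3430, 3331, 3425 and 3638. Col3a1, the highest fibroblast gene, had 236 in both libraries 3 and 4. The order of the sums was found for 7 of the 42 members (16.7%), against 4.54% of all detected genes, a comparison made after the values were seen and not tested. These were Adamts1, Adamts4, Adamts9, Adamts16, Adamts17, Mmp2 and Mmp11. Library 4 over library 2 came to 4.50-fold for Mmp2, 4.28-fold for Adamts16, 3.50-fold for Adamts17 and 2.83-fold for Mmp11, and to 1.35-fold for Adamts9, 1.28-fold for Adamts1 and 1.10-fold for Adamts4. The pericyte sum itself was 6.67-fold higher in library 4 than in library 2, and 8 of its 10 genes were highest in library 4. The photoreceptor sum was also highest in library 4, with all 10 genes. The orders of all marker lists were looked at, and the order 2, 1, 3, 4 held the most members. The endothelial order, 4, 3, 2, 1 from the lowest, was found for 3 of the 42 members (Mmp19, Mmp25 and Mmp28), against 4.4% of all detected genes. The photoreceptor order was found for 2 (Adam15 and Adamts10), against 5.88%. The progenitor and Müller glia order was found for 2 (Adam11 and Timp2), against 5.8%. The astrocyte, microglia and leukocyte, and pigment epithelium orders were each found for 1 (Adamts3, Mmp14 and Adamts7). The part of other cells in these values was not tested.

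**Figure D4:**
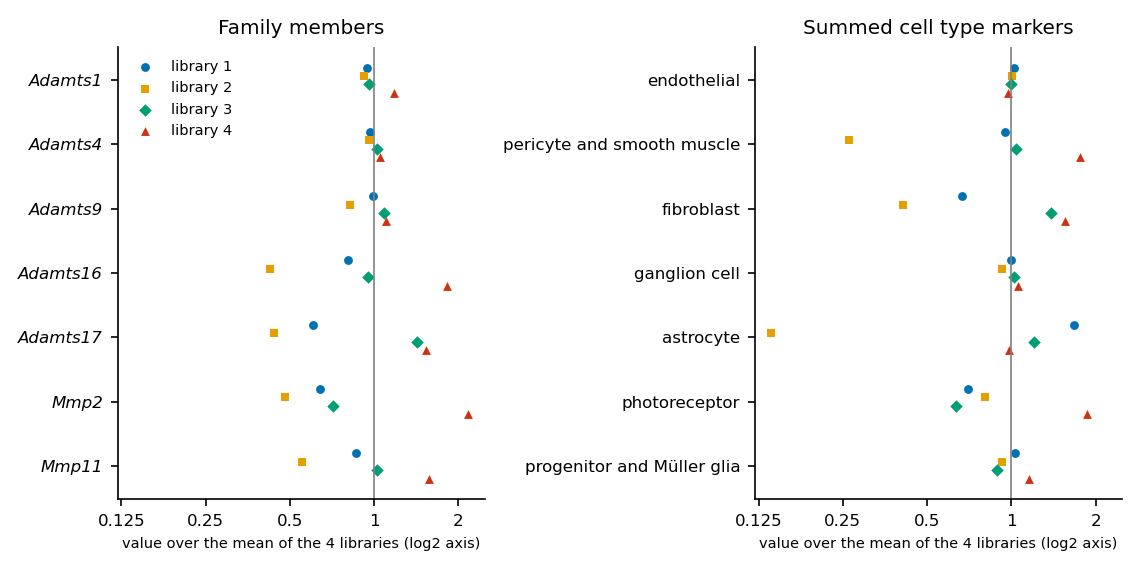
Values of the 7 members ordered like the summed pericyte and smooth muscle markers (left) and summed markers of 7 cell types (right), each divided by its mean over the 4 libraries, on a log2 axis. Library 4 lies farthest right and library 2 farthest left for the members, with a narrow spread for Adamts1 and Adamts4, and endothelial markers stay near 1 in every library.

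The members lay in the genome in part in clusters with a gap of at most 1 Mb between neighbours. On chromosome 9, between 7344381 and 7674979, 6 MMP genes (Mmp12, Mmp3, Mmp10, Mmp8, Mmp27 and Mmp20) followed each other and none was detected. On chromosome 8, between 24677225 and 25016927, Adam3, Adam5 and Adam32 were not detected while their neighbour Adam9 had 2129 normalised counts. Adamts1 and Adamts5 on chromosome 16 were both detected, with levels per kb of 712 ± 84.5 and 6.21 ± 1.80 (SD, n = 4). Of the adjacent pair Adamts15 and Adamts8 on chromosome 9, between 30899155 and 30963838, only Adamts8 was detected. All coordinates are those of the deposited table and match GRCm38.

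Several members share exonic bases with a gene on the opposite strand. The labels name a stranded kit, in a protocol worded for human umbilical vein ECs, and whether strand was used in counting is not given in the sources used here, so reads of such partners cannot be told apart. Adam17 shares 311 exonic bases with Iah1 (mean 403) and Adam15 shares 736 with 4731419I09Rik (mean 25.2), both partners being far below the member. In 4 low members a partner was the higher gene: Mmp24 shares 637 bases with BC029722 (mean 371.5), Mmp19 shares 789 with Tmem198b (mean 952), Adamts7 shares 122 with Tbc1d2b (mean 1590) and Timp4 shares 90 with Syn2 (mean 243.5). The levels of Mmp24, Mmp19, Adamts7 and Timp4 are uncertain for this reason. Timp1 and Timp3 lie inside the spans of Syn1 and Syn3 but share 0 exonic bases with them. On the same strand, Adam4 overlaps the spans of Cox16 (mean 95.25) and Gm20498 (mean 21), and Adamtsl1 that of Sh3gl2 (mean 73). These partners are the higher genes and share 0 exonic bases with the members. Whether their reads were counted for Adam4 or Adamtsl1 was not tested.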

How the data were processed

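Poly(A) RNA-seq was analysed in 4 libraries of retinal ECs at P6, 1 group, taken from the sample labels. The deposited values are best described as a score: counts per Ensembl gene that the authors normalised between libraries by a method not given in the sources used here and rounded to whole numbers. Aligner, genome build and duplicate handling are likewise not given for these mouse samples, and FastQC is the only tool in the submitters' processing notes. Depth is therefore unknown and no counting interval was computed. Columns of other samples numbered 0.

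The table of 26834 rows was reduced to 26822 gene symbols. Detection required a mean of 10. Levels per kb used the union of exons of GENCODE M21 (70 of 70 members at the same GRCm38 span), and coding length, as an alternative, its coding exons. For each pair, log2(value + 1) per length was permuted exactly over 70 splits (two-sided), with Benjamini-Hochberg adjustment. Differences on this scale are understated for low genes because of the pseudocount of 1. Spread was scored as a robust z against a lowess trend (fraction 0.2, 3 iterations) over 12977 detected protein coding genes, called above 3. No count model was fitted, since the values are not raw counts. Every detected member was named with its mean, and values per library were given for means of at least 1000, the highest genes of each role, all TIMPs and pairs. Members, role lists, pairs and pathway lists were chosen with earlier results of these data known. Thresholds of 1 and 50, pseudocounts of 0.5 and 10, other lengths and leaving out each library were tried. Steps were tested on simulated data. Python 3.11.15, numpy 2.4.6, pandas 2.3.3, statsmodels 0.14.6 and matplotlib 3.10.9 were used. Promoters came from RefSeq (GRCm38.p6). A listed inhibitor is not reported here.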

Additional observations from a re-analysis of the deposited data

Results flagged for a closer look

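In 5 of the 42 detected members 1 library lay far from the other 3, with a gap to the nearest library that took up most of the range. About 1 in 20 genes, or 2.1 of 42, would show this by chance, and 6.73% of all detected protein coding genes showed it. Adamts1 had 4088 normalised counts in library 4, against 3193 to 3333 in the others. Mmp2 had 270 in library 4, against 60 to 89. Adamts18 had 45 in library 4, against 15 to 19. Adamts6 had 92 in library 3, against 49 to 55. Adamtsl4 was low in library 3 with 30, against 93 to 103. None of these 5 reached a robust z of 3 for its spread, and the z of Adamts1 was 1.72. The pericyte and smooth muscle markers and the photoreceptor markers were highest in library 4, with sums of 3880 and 13570, and their part in the Adamts1, Mmp2 and Adamts18 values was not tested.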

How the results depend on the processing

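The number of detected members was 42 and became 59 with a minimum mean of 1, 29 with a minimum of 50, 38 where at least 10 was asked of every library, and 41 to 44 when each library was left out in turn. The 27 pair differences were recomputed under 8 alternatives, and of the 216 resulting values 204 kept their direction and their overlap, 10 reversed and 2 no longer overlapped (Timp1 over Timp3, 0.34 without library 3 and 0.39 without library 4). Reversals without division by length were Adam15 over Adam17 (-0.29), Adamts17 over Adamts19 (0.12), Timp1 over Timp2 (-1.01) and Timp1 over Timp3 (-2.10). With coding length they were Adam15 over Adam17 (-0.29), Adamts17 over Adamts19 (0.23), Timp1 over Timp2 (-0.91), Timp1 over Timp3 (-2.06) and Timp3 over Adam17 (0.77), and Adamts17 over Adamts19 ranged from -0.85 to 0.35 when each library was left out, turning without library 2 only. Of the others, 8 pairs moved by over 1.5 times with the length: without division Adam22 over Adam23 to 1.84, Adamts1 over Adamts9 to 2.35, Adamts4 over Adamts5 to 4.71, Timp1 over Timp4 to 3.67 and Timp2 over Timp4 to 4.68, and with coding length Adamts4 over Adamts5 to 4.81, Adamts7 over Adamts12 to -2.57, Mmp17 over Mmp25 to -3.77, Timp1 over Timp4 to 3.90 and Timp2 over Mmp14 to -0.72. The summed MMP over summed TIMP level, an alternative added after the data were seen, came to 3.43 without division and 1.14 with coding length. Family shares moved with the length: Adam10 to 39.4% without division by length and 43.0% with coding length, Adamts1 to 32.6% without division, Mmp14 to 39.5% and 37.8%, Timp1 to 13.5% and 14.0%, and Timp3 to 57.8% and 58.3%. These changes follow from the lengths used. At a z above 2 in place of 3, 1 member (Timp2) was called, against 1.95% of all detected genes. Samples could not be paired because the libraries form 1 group with no second group to pair them with. The 2 genes of a pair are paired by library, which the permutation over 70 splits ignored. A sign-flip test that keeps this pairing could not go below 0.125.

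Depth is unknown, so values near 10 cannot be given an error from counting. With 4 libraries the smallest p was 0.0286. Differences between genes carry any bias of mapping, transcript ends and length, none of which was tested.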
